A study of Mus musculus with 6 samples.

Results

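The genes of the proteasome and immunoproteasome were examined in bone marrow cells of a mouse MLL-AF9 leukemia. Members were all protein-coding genes whose symbol starts with Psma, Psmb, Psmc, Psmd or Psme followed by a digit, a rule that uses names and no measured value. It took 45 of the 55487 genes of the table. Of these, 44 had a mean normalised count of at least 10 over the 6 libraries and were tested, while Psmb11, the thymus-specific catalytic subunit, had no read in any library. MLL-AF9 is a fusion oncogene that causes acute myeloid leukemia. In this model it was expressed, together with GFP, in CD45.2+ cells of the genotype Mx1-Cre Brd9 fl/fl on a C57BL/6 background, and 1000 leukemic cells were given to each CD45.1+ CD45.2- recipient, which the study's methods give as 6 weeks old. Starting on the day after transplantation, recipients received 3 injections of PBS or of pIpC at 20 mg/kg, and cells were prepared 10 days after injection. All 6 libraries, the PBS ones included, therefore come from cells that carry the floxed Brd9 alleles and the Cre transgene. Cre is driven by the Mx1 promoter, which responds to interferon, and pIpC, a synthetic double-stranded RNA, triggers interferon production, so that deletion of Brd9 exons 4 to 6 and exposure to interferon cannot be told apart in this design. The sample labels give GFP+ bone marrow cells as the material, whereas the study's methods describe c-Kit+ cells.

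The measurement was poly(A) RNA sequencing, with 3 libraries per group. Nothing in the labels says that the 3 come from separate mice, so p-values measure the spread between these libraries. Recovered reads on genes numbered 19277439 to 22378154 per PBS library and 22348517 to 23586722 per pIpC library. Brd9, the gene targeted by Cre, had normalised counts of 1927, 1946 and 1632 across PBS replicates 1 to 3 and 2036, 2263 and 2011 across pIpC replicates 1 to 3 (log2 fold change 0.20, adjusted p = 0.259), so that it was not lower under the pIpC label. The deleted exons are only part of the gene, and the count covers all of it. The Brd9 count therefore does not show whether those exons were deleted. The second group is called the libraries labelled pIpC throughout, or pIpC replicates 1 to 3 for short. Fold changes are differences of the group means of log2(normalised count + 1), pIpC minus PBS, which understates the change of low genes, and a gene is called higher or lower when its adjusted p from limma, over all tested genes, is under 0.1.

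The proteasome degrades proteins that carry ubiquitin chains. Its core particle is a barrel of outer alpha rings and inner beta rings, with proteolytic sites on Psmb5, Psmb6 and Psmb7. The regulatory particle caps the barrel, where a ring of ATPases (the Psmc genes) unfolds the substrate and non-ATPase subunits (the Psmd genes) bind and remove ubiquitin. Interferon gamma induces 3 alternative catalytic subunits, the immunosubunits, which replace the constitutive ones in newly assembled barrels and favour peptides for MHC class I. Psmb8 takes the place of Psmb5, Psmb9 that of Psmb6 and Psmb10 that of Psmb7. Other caps, built from Psme1 and Psme2, Psme3 or Psme4, open the barrel without ATP. Constitutive subunit genes are known targets of the transcription factor NRF1, the product of Nfe2l1.

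Short stretches of promoter are shown for the replaceable catalytic subunits, because the pairs they form are the main within-library comparison below. Of the 45 members, 38 matched a RefSeq promoter (assembly GRCm38.p6). In the 250 bases before each start, both strands were searched for 5 motifs, and each line below holds the 30 bases around the match found for that gene, 5′ to 3′ on the strand of the gene, with the match in capitals. The Psmb8 stretch, chr17:34198087-34198116, holds TTCNNNGAA, the letters of a gamma-activated site, 97 to 89 bases before the start. The Psmb9 stretch, chr17:34187331-34187360, holds CCAAT on the opposite strand, 8 to 4 bases before the start. The Psmb10 stretch, chr8:105938491-105938520, holds the E-box CACGTG. The Psmb5 stretch, chr14:54618024-54618053, and the Psmb6 stretch, chr11:70525327-70525356, hold TGACNNNGC, the core of the antioxidant response element that NRF1 and NRF2 bind, 47 to 39 and 9 to 1 bases before the start. In GENCODE M21 the Psmb8 and Psmb9 stretches lie inside an exon annotated for the same gene, and the other 3 lie upstream of their gene.
Psmb8: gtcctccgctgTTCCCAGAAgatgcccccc
Psmb9: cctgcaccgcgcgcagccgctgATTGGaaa
Psmb10: gttcccaacgccCACGTGgtggcacgccca
Psmb5: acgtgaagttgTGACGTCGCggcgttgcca
Psmb6: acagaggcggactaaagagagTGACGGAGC

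Across the 38 members, TGACNNNGC was found in 5 (13.2%: Psmb5, Psmb6, Psmc6, Psmd12 and Psmd9), against 10.1% of all 27025 promoters. TTCNNNGAA was found in Psmb8 alone (2.63% against 7.10%). GAAANNGAA, the core of the interferon-stimulated response element, was found in 3 (7.89% against 7.15%): Psmb3, Psmd4 and Psmd9. CCAAT was found in 15 (39.5% against 34.5%) and CACGTG in 4 (10.5% against 6.04%). TTCNNNGAA and GAAANNGAA share letters and can overlap. These are matches of letters in a fixed window and were tested for nothing further.

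PBS replicate 3 stood apart from the other PBS libraries, and it did so in nearly every proteasome gene. Over all genes, the chi-square statistic per gene was 6.30 between PBS replicates 1 and 2 but 171 and 194 between either and PBS replicate 3, and 7.93 to 16.8 between pIpC libraries. PBS replicate 3 was the highest of the 6 libraries in 38 of the 44 tested members (86.4%), against 34.4% of all tested genes. Its count was a median of 1.90 times the mean of PBS replicates 1 and 2 over the 31 constitutive subunits. By group that median was 2.19 in the constitutive core particle, 1.77 in the regulatory particle and 2.46 in the immunosubunits, against 0.996 over all tested genes. Psmb10 had the largest excess, 3.03-fold. The exceptions were Psmd1, Psme2b, Psme3 and Psme4, where it was the lowest library, and Psmd2 and Psma8, where it lay within the range of the others. As both groups' means enter each fold change, the values of members are given below with and without this library.

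**Figure D1:**
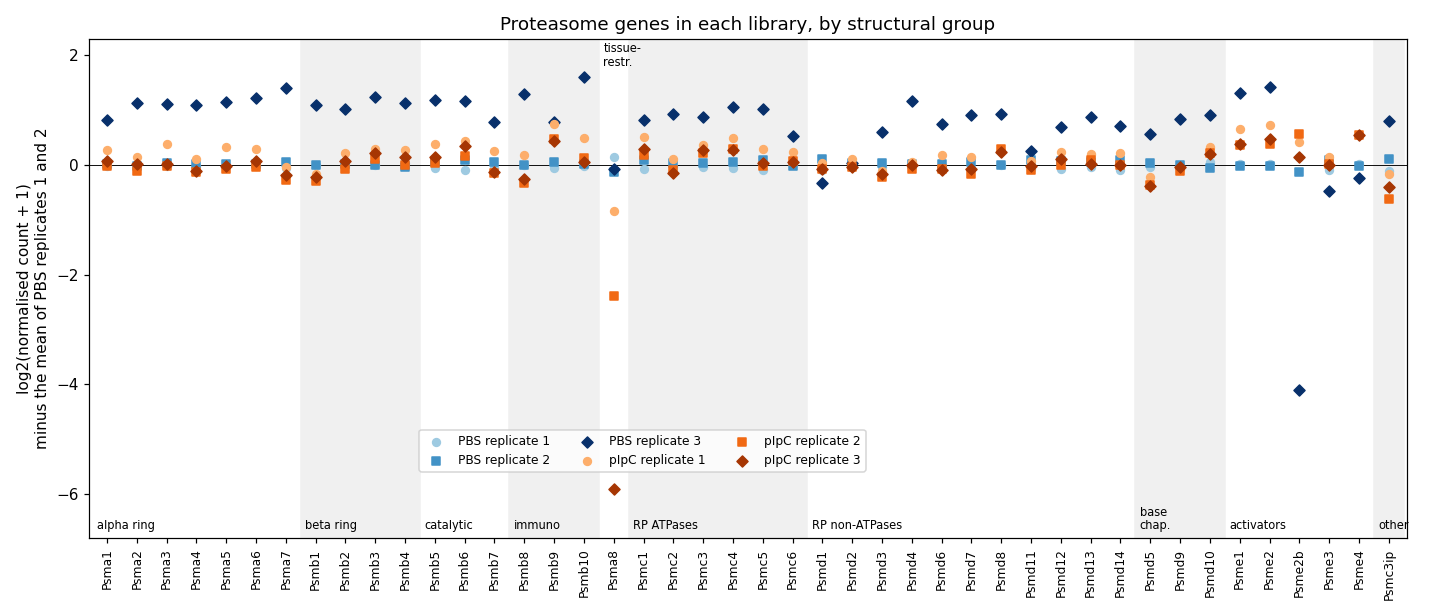
Level of each of the 44 tested members in each library, as log2(normalised count + 1) minus the mean of PBS replicates 1 and 2 (y axis), with members ordered by structural group on the x axis (RP, regulatory particle; shading separates groups). PBS replicate 3 (dark blue diamonds) is the highest library in 38 of 44 members, while Psma8 in pIpC replicate 3 and Psme2b in PBS replicate 3 are the lowest points.

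The excess in PBS replicate 3 tended to be larger in genes with shorter transcripts. Over the 44 members, Spearman's rho between the log2 ratio of PBS replicate 3 to the other PBS libraries and the longest annotated transcript was -0.46, over the 31 constitutive subunits it was -0.54, and over 15005 tested genes with a length it was -0.48. These are descriptions across genes, which share the same libraries. Psme4 has the longest transcript of the members, 6491 bases, and a log2 ratio of -0.23. Psme2b has the shortest, 837 bases, but runs opposite to the trend, with the lowest log2 ratio of the members, -4.11. What sets this library apart was not tested.

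**Figure D2:**
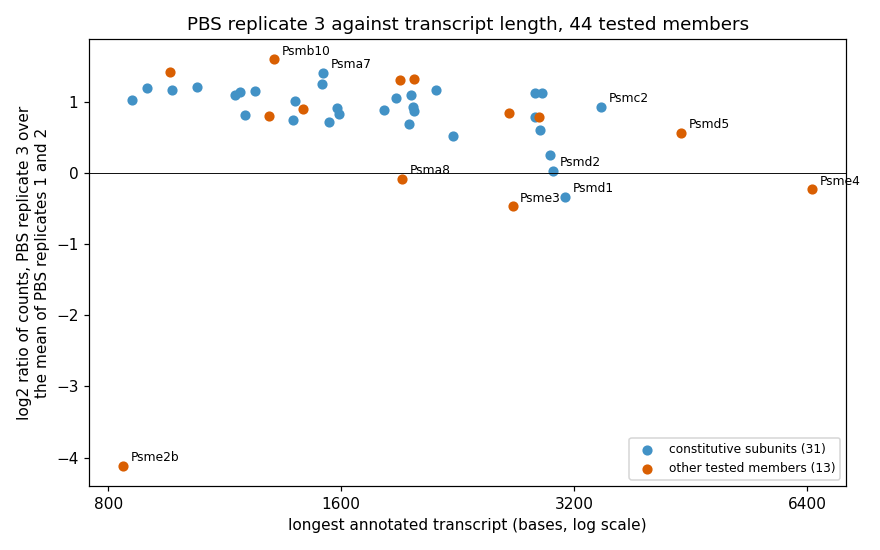
Log2 ratio of the count in PBS replicate 3 to the mean of PBS replicates 1 and 2 (y axis) against the longest annotated transcript in bases (x axis, log scale), 1 point per tested member. Most shorter transcripts lie near 1, Psma8, Psmd1, Psme3 and Psme4 lie a little under 0, and Psme2b stands alone at the bottom.

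Of the 44 tested members, 4 were called (9.09%), 1 higher and 3 lower, against 45.3% of all 15020 tested genes, of which 25% were higher and 20.4% lower. Psme4 was higher, and Psma8, Psmd5 and Psmc3ip were lower in the libraries labelled pIpC. None of the 31 constitutive subunits was called by limma, edgeR called none either, and DESeq2 called Psmb1 alone. At an unadjusted p under 0.05 the counts were 0 with limma, 0 with edgeR and 1 with DESeq2. Without PBS replicate 3, limma called 8 of the 31, 6 higher and 2 lower. Among all tested members, 16 were called without PBS replicate 3 (36.4%), 11 higher and 5 lower, against 65.1% of all genes, of which 34.5% were higher and 30.6% lower. The median log2 fold change of the tested members moved from -0.22 to 0.09, and that of all tested genes was 0.01 in both fits. In bulk RNA a lower count from fewer cells of a type and from less RNA per cell cannot be told apart. Markers of other cell types, neutrophils among them, also differed between the groups, with the values given last.

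**Figure D3:**
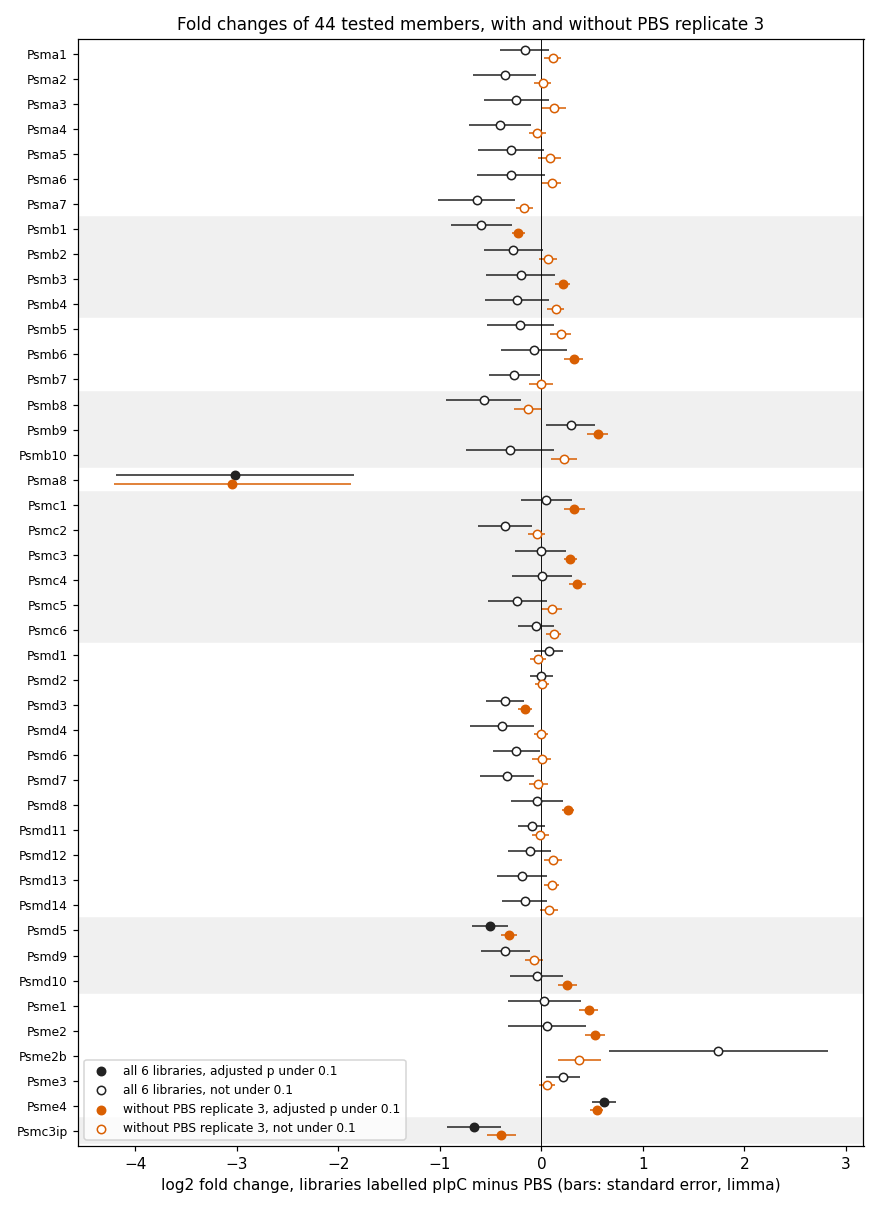
Log2 fold change of each tested member, libraries labelled pIpC minus PBS (x axis), with its standard error from limma, in the fit of all 6 libraries (black) and without PBS replicate 3 (orange). Filled points have an adjusted p under 0.1. The core and regulatory particle subunits lie left of 0 in most cases with all libraries and around 0, with shorter bars, without that library.

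The alpha ring, which gates entry to the barrel, held 7 members and limma called none in either fit, nor did any pass an unadjusted p under 0.05 with limma, edgeR or DESeq2. Its median log2 fold change was -0.30, or 0.08 without PBS replicate 3. Psma7 had the lowest value, with normalised counts of 2999.7, 3219 and 8244 across PBS replicates 1 to 3 and 3018, 2569 and 2736 across pIpC replicates 1 to 3. All pIpC values lay within or below the range of PBS replicates 1 and 2, and the log2 fold change was -0.64 (adjusted p = 0.232), or -0.17 (adjusted p = 0.108) without PBS replicate 3. Psma1 was at the other end, at -0.16, with 2753, 2834 and 4915 across PBS replicates 1 to 3 and 3362, 2758 and 2954 across pIpC replicates 1 to 3. The pIpC libraries overlapped PBS replicates 1 and 2 in Psma1, and without PBS replicate 3 its value was 0.11 (adjusted p = 0.308). Per kb of longest transcript, Psma6 was the most abundant of all members, with 2711 to 6377 normalised counts per kb in PBS libraries and 2666 to 3349.5 in the libraries labelled pIpC.

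The non-catalytic beta ring subunits Psmb1, Psmb2, Psmb3 and Psmb4 line the barrel without cutting. Their median log2 fold change was -0.26, or 0.10 without PBS replicate 3. Psmb1 was the lowest, with 2909, 2906 and 6241 across PBS replicates 1 to 3 and 2597, 2365 and 2499.7 across pIpC replicates 1 to 3. Every pIpC library lay below every PBS library, and the log2 fold change of -0.59 missed the threshold (adjusted p = 0.169) but passed it without PBS replicate 3, at -0.23 (adjusted p = 0.0164). Psmb3 had 2167, 2188 and 5166 across PBS replicates 1 to 3 and 2676, 2346 and 2544 across pIpC replicates 1 to 3. Its 3 pIpC values lay above PBS replicates 1 and 2 and far below PBS replicate 3, so that the log2 fold change was -0.21 (adjusted p = 0.657) with that library and 0.21 (adjusted p = 0.035) without it.

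Among the constitutive catalytic subunits PBS replicate 3 lay above all other libraries, and every pIpC library lay above PBS replicates 1 and 2 in Psmb6 but not in Psmb5 or Psmb7. Psmb5, which carries the chymotrypsin-like site, had 1069, 1157 and 2535 across PBS replicates 1 to 3 and 1454, 1137 and 1234 across pIpC replicates 1 to 3. Psmb6, the caspase-like site, had 1468, 1655 and 3514 across PBS replicates 1 to 3 and 2114, 1746 and 1985 across pIpC replicates 1 to 3. Psmb7, the trypsin-like site, had 1374, 1466 and 2459 across PBS replicates 1 to 3 and 1698, 1281 and 1306 across pIpC replicates 1 to 3. None was called with all libraries, at log2 fold changes of -0.21, -0.07 and -0.27 (adjusted p = 0.651, 0.875 and 0.434). Without PBS replicate 3, Psmb6 was higher, at 0.32 (adjusted p = 0.019), while Psmb5 was at 0.19 (adjusted p = 0.16) and Psmb7 at -0.0027 (adjusted p = 0.987). Reads of Psmb7 and of Psmc3 may include some of the overlapping genes Nek6 (up to 242 reads) and Slc39a13 (up to 488 reads). The same holds for Psma2 with AW209491 (up to 543 reads, same strand). It also holds for Psmd13 with Sirt3 (up to 891 reads, opposite strand) and Gm15542 (up to 511 reads, same strand).

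The fold changes of the 3 immunosubunits differed in sign, and limma called none of them with all libraries. Psmb9 (ENSMUSG00000096727, chr17:34181987-34187764) had 1116, 1213 and 2011 across PBS replicates 1 to 3 and 1955, 1618 and 1572 across pIpC replicates 1 to 3. All pIpC values were above PBS replicates 1 and 2, by 1.47-fold on average, and below PBS replicate 3. The log2 fold change was 0.29 ± 0.24 (SE; adjusted p = 0.38) with all libraries, and without PBS replicate 3 Psmb9 was higher, at 0.55 (adjusted p = 0.00157), the highest value of any member in that fit. Psmb8 (ENSMUSG00000024338, chr17:34197721-34201454) had 2398, 2418 and 5936 across PBS replicates 1 to 3 and 2722, 1922 and 2022 across pIpC replicates 1 to 3. Its pIpC values lay on both sides of PBS replicates 1 and 2, and the log2 fold change was -0.57 (adjusted p = 0.269), or -0.13 (adjusted p = 0.419) without PBS replicate 3. Psmb10 (ENSMUSG00000031897, chr8:105935735-105938444) had 687, 708 and 2113 across PBS replicates 1 to 3 and 977, 764 and 724 across pIpC replicates 1 to 3. Here all pIpC replicates were above PBS replicates 1 and 2, replicate 1 by the most, and PBS replicate 3 was 3.03 times the mean of the latter, which gave -0.31 (adjusted p = 0.606), or 0.22 (adjusted p = 0.16) without it. Psmb9 and Psmb8 lie in the MHC region of chromosome 17 beside the peptide transporter genes Tap1 and Tap2. Psmb9 and Tap1 are annotated head to head and overlap by 212 bases, and the labels call the libraries unstranded, so reads in the overlap cannot be told apart. Tap1 was itself higher in the libraries labelled pIpC, with 1637, 1596 and 1439 across PBS replicates 1 to 3 and 3085, 2525 and 2387 across pIpC replicates 1 to 3, at 0.77 (adjusted p = 0.00559), or 0.71 (adjusted p = 0.00042) without PBS replicate 3.

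A ratio within a library is free of the library's scaling, though not of its trend with transcript length. Each immunosubunit was set against the constitutive subunit it replaces. The log2 ratio of Psmb8 to Psmb5 was 1.16, 1.06 and 1.23 across PBS replicates 1 to 3 and 0.90, 0.76 and 0.71 across pIpC replicates 1 to 3. All 3 pIpC libraries were below all 3 PBS libraries, 0.79 ± 0.10 against 1.15 ± 0.08 (SD, n = 3 each), a difference of -0.36. For Psmb9 to Psmb6 the log2 ratio was -0.40, -0.45 and -0.80 across PBS replicates 1 to 3 and -0.11, -0.11 and -0.34 across pIpC replicates 1 to 3. Here all pIpC libraries were above all PBS libraries, -0.19 ± 0.13 against -0.55 ± 0.22 (SD, n = 3 each), a difference of 0.36. The log2 ratio of Psmb10 to Psmb7 was -0.999, -1.05 and -0.22 across PBS replicates 1 to 3 and -0.80, -0.74 and -0.85 across pIpC replicates 1 to 3. PBS replicate 3 lay above every other library, and the difference was -0.04, or 0.23 without it. The exact 2-sided permutation test gave p = 0.1, 0.1 and 1 for the 3 pairs, adjusted to 0.15, 0.15 and 1. The smallest p that 3 libraries against 3 allow is 0.1, so neither 0.05 nor a p under 0.1 could be reached. As a background, the counts of single genes did not overlap between groups in 56.8% of all tested genes. When any 1 library was left out, the first difference stayed between -0.42 and -0.32 and the second between 0.24 and 0.44. The longest transcripts of Psmb9 and Psmb6 differ in length, 2884 against 966 bases, and those of Psmb8 and Psmb5 measure 1907 and 899 bases. With each library's length trend removed, the Psmb9 to Psmb6 difference was 0.050 (exact permutation p = 0.8), with the groups overlapping. This removal takes the longest annotated transcript as the length of each gene. It would also take out a difference between the groups that itself goes with length, here and for single genes below. On the same scale Psmb8 to Psmb5 differed by -0.61 (exact permutation p = 0.1), again with all pIpC libraries below all PBS libraries, and Psmb10 to Psmb7 by 0.16 (exact permutation p = 0.3).

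**Figure D4:**
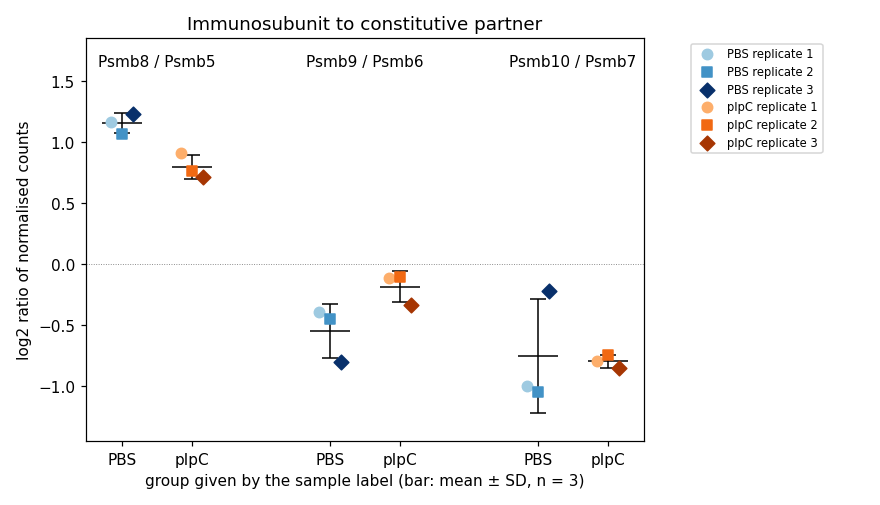
Log2 ratio of normalised counts of each immunosubunit to the constitutive subunit it replaces (y axis), for the groups given by the sample labels (x axis); points are libraries, bars the mean ± SD of 3. Psmb8 / Psmb5 is lower in every pIpC library, Psmb9 / Psmb6, with no adjustment for transcript length, is higher in every pIpC library, and in Psmb10 / Psmb7 PBS replicate 3 stands above every other library.

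As a sum over the 3 positions, the immunosubunits took 37.6% ± 1.8 of the summed level per kb of union exons of the 6 catalytic genes in PBS, and 35.8% ± 1.6 under the pIpC label (SD, n = 3 each). The difference was -1.86 percentage points (exact permutation test, 2-sided p = 0.3, where 0.1 is the smallest p possible). Per kb of longest transcript the shares were 40.6% ± 1.9 and 37.6% ± 1.8 (SD, n = 3 each), a difference of -2.96 points (exact permutation p = 0.2). With no division by length they were 52.1% ± 1.9 and 50.5% ± 1.5 (SD, n = 3 each), a difference of -1.63 points (exact permutation p = 0.4). The level of the share therefore depends on the length used. Per kb of union exons, the values were 37.4, 36.0 and 39.6% across PBS replicates 1 to 3 and 37.1, 36.2 and 34.0% across pIpC replicates 1 to 3. On that measure the groups overlapped, and the difference was -0.90 points without PBS replicate 3.

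The regulatory particle held 17 members, and limma called none with all libraries (0 also at an unadjusted p under 0.05, and 0 with edgeR and DESeq2). The 6 ATPases had a median log2 fold change of -0.03, or 0.20 without PBS replicate 3, when 3 of them (Psmc1, Psmc3 and Psmc4) were higher. Psmc1, an ATPase that opens the gate of the core, had 2447, 2743 and 4600.2 across PBS replicates 1 to 3 and 3691, 2940.4 and 3154 across pIpC replicates 1 to 3. All pIpC values were above PBS replicates 1 and 2 and below PBS replicate 3, with a log2 fold change of 0.05 (adjusted p = 0.89), or 0.33 (adjusted p = 0.0217) without that library. Psmc2 was lowest among the ATPases, with 2102, 2229.9 and 4118 across PBS replicates 1 to 3 and 2325, 2032 and 1951 across pIpC replicates 1 to 3 and a log2 fold change of -0.36 (adjusted p = 0.333), or -0.05 (adjusted p = 0.673) without PBS replicate 3. The 11 non-ATPases had a median of -0.16, or 0.00 without PBS replicate 3. In Psmd4, a ubiquitin receptor, the counts were 2226, 2259 and 5014 across PBS replicates 1 to 3 and 2325, 2129 and 2251 across pIpC replicates 1 to 3, with the groups overlapping and a log2 fold change of -0.39 (adjusted p = 0.366), or -0.01 (adjusted p = 0.948) without PBS replicate 3. Psmd1, a scaffold subunit, had 2699, 3102 and 2302 across PBS replicates 1 to 3 and 2984, 2740.2 and 2752 across pIpC replicates 1 to 3 and was the highest of the non-ATPases at 0.07 (adjusted p = 0.707), or -0.04 (adjusted p = 0.724) without PBS replicate 3. Psmd2, the other scaffold subunit, was close to level across libraries, with 4632, 4893 and 4850.3 (PBS) and 5132, 4615 and 4612 (pIpC). Without PBS replicate 3, Psmd8 was also higher, at 0.26 (adjusted p = 0.00602), and Psmd3 was lower, at -0.16 (adjusted p = 0.0627).

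Psmd5, Psmd9 and Psmd10 are chaperones that help assemble the ATPase ring and leave before the proteasome is complete. Psmd5 (ENSMUSG00000026869, chr2:34849734-34874968) was lower, with 1469, 1541 and 2223 across PBS replicates 1 to 3 and 1292, 1174 and 1157 across pIpC replicates 1 to 3, or means of 1744 ± 416 (PBS) and 1208 ± 74.0 (pIpC; SD, n = 3 each). Each pIpC library was below each PBS library, with a log2 fold change of -0.51 ± 0.18 (SE; adjusted p = 0.0698), or -0.32 (adjusted p = 0.00669) without PBS replicate 3. The call was lost when any 1 of the pIpC replicates 1, 2 and 3 was left out (adjusted p = 0.133, 0.192 and 0.196) and with scaling to the constitutive subunits (0.327). Psmd9 had 526, 531 and 949 (PBS) and 503, 491 and 513 (pIpC), with no overlap and a log2 fold change of -0.35 (adjusted p = 0.298), or -0.07 (adjusted p = 0.498) without PBS replicate 3. Psmd10 had 482, 450.4 and 874 (PBS) and 587, 545 and 539 (pIpC) and -0.05 (adjusted p = 0.902), and was higher without PBS replicate 3, at 0.26 (adjusted p = 0.0415).

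The 5 activators had a median log2 fold change of 0.21, or 0.47 without PBS replicate 3. Psme4, or PA200, an ATP-independent cap with known roles in degrading acetylated histones, was higher in the libraries labelled pIpC. Its counts were 1358, 1322 and 1143 across PBS replicates 1 to 3 and 1961, 1945 and 1952 across pIpC replicates 1 to 3, or means of 1274 ± 115 (PBS) and 1953 ± 7.97 (pIpC; SD, n = 3 each). All pIpC libraries were above all PBS libraries, with a log2 fold change of 0.62 ± 0.12 (SE; adjusted p = 0.00668). Without PBS replicate 3 the value was 0.54 (adjusted p = 9.46e-05). Once each library's trend with transcript length was removed, Psme4 was at 0.30 and lost its call (adjusted p = 0.129), as it did with scaling to the constitutive subunits (0.87, adjusted p = 0.104). Psme4 (ENSMUSG00000040850) lies at chr11:30771726-30880361.

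Psme1 and Psme2 form the PA28 cap that interferon gamma induces, and lie 5911 bases apart on chromosome 14. Psme1 had 2529.9, 2454 and 6217 across PBS replicates 1 to 3 and 3935, 3191 and 3259.8 across pIpC replicates 1 to 3. Psme2 had 1731, 1698 and 4587 across PBS replicates 1 to 3 and 2834, 2237 and 2378 across pIpC replicates 1 to 3. In both genes every pIpC library was above PBS replicates 1 and 2 and below PBS replicate 3, which was 2.50 and 2.67 times the mean of the other PBS libraries. The log2 fold changes were 0.03 and 0.05 (adjusted p = 0.957 and 0.925) with all libraries, and both genes were higher without PBS replicate 3, at 0.47 (adjusted p = 0.00253) and 0.53 (adjusted p = 0.00171). Psme3, which forms the nuclear cap PA28 gamma, had 3573, 4073 and 2759 across PBS replicates 1 to 3 and 4217, 3881 and 3824 across pIpC replicates 1 to 3, with the groups overlapping, and its log2 fold change was 0.21 (adjusted p = 0.353), or 0.06 (adjusted p = 0.555) without PBS replicate 3. Psme2b, a gene named as a copy of Psme2, had low counts of 82.2, 67.8 and 3.40 (PBS) and 99.8, 110.3 and 83.2 (pIpC). PBS replicate 3 held 3 reads, and the log2 fold change was 1.74 (adjusted p = 0.247) with it and 0.37 (adjusted p = 0.159) without it. Psme2b overlaps 9930111J21Rik1, which had up to 806 reads, on the same strand and may share reads with Psme2, so its counts are uncertain.

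Psma8, the core subunit known from the testis, where it stands in for Psma7, had the largest fold change of the members. Its normalised counts were 322, 266 and 277 across PBS replicates 1 to 3 and 164, 55.2 and 3.87 across pIpC replicates 1 to 3, or means of 288 ± 29.5 (PBS) and 74.2 ± 81.6 (pIpC; SD, n = 3 each). Each pIpC library was below each PBS library, but the pIpC libraries also spread from 3.87 to 164 among themselves. It was lower with a log2 fold change of -3.02 ± 1.17 (SE; adjusted p = 0.0872), and at -3.05 (adjusted p = 0.0505) without PBS replicate 3. The size of this difference depended on pIpC replicate 3, which had 4 reads: without that library the log2 fold change was -1.58 (adjusted p = 0.0649). The call was lost without PBS replicate 1, PBS replicate 2 or pIpC replicate 2 (adjusted p = 0.154, 0.152 and 0.152), with edgeR (0.132) and with scaling to the constitutive subunits (0.147). Psmc3ip (ENSMUSG00000019303, chr11:101091823-101095436) meets the naming rule but is no proteasome subunit: it is a cofactor of meiotic recombination named for binding Psmc3. It was lower, with 453, 533 and 860.1 across PBS replicates 1 to 3 and 437, 319.8 and 374 across pIpC replicates 1 to 3, or means of 616 ± 215 (PBS) and 377 ± 58.7 (pIpC; SD, n = 3 each), and a log2 fold change of -0.66 ± 0.26 (SE; adjusted p = 0.0935). Every pIpC library was below every PBS library. Without PBS replicate 3 it was at -0.39 (adjusted p = 0.0439), and the call was lost without PBS replicate 2 (adjusted p = 0.129) or any pIpC replicate (0.134, 0.266 and 0.208), with no filter on low counts (0.110) and with scaling to the constitutive subunits (0.151). Psmc3ip overlaps Mlx, which had up to 1635 reads, on the opposite strand.

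**Figure D5:**
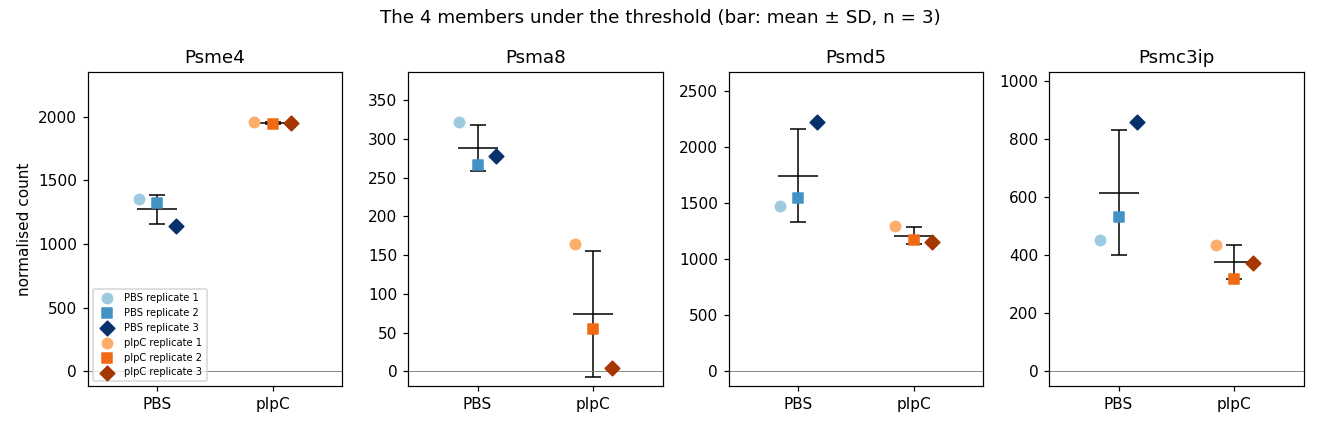
Normalised counts (y axis, from 0) of the 4 called members in each library, by group (x axis); points are libraries, bars the mean ± SD of 3. Psme4 is higher in all 3 libraries labelled pIpC, and Psma8, Psmd5 and Psmc3ip are lower in all 3, with pIpC replicate 3 near 0 in Psma8.

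In all, both groups were fully separated in 2 members with pIpC higher (Psme2b and Psme4) and in 6 with pIpC lower (Psmd5, Psmd9, Psmb1, Psmc3ip, Psmd3 and Psma8). Over all tested genes 30.5% did so with pIpC higher and 26.3% with pIpC lower. Leaving out PBS replicate 3 gave 14 members higher and 6 lower, against 38.3% and 35% of all genes, 73.3% in either direction.

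To set aside the shared shift, each member was also expressed relative to the median of the 31 constitutive subunits in the same library, a choice made after the data were seen. On this scale the range of a constitutive subunit over the 6 libraries had a median of 0.35 on the log2 scale, and over the 5 libraries other than PBS replicate 3 a median of 0.19, from 0.07 in Psmd2 to 0.42 in Psmb6. Of the 44 tested members, 18 did not overlap between groups (40.9%), against 48.7% of all genes. The scale is itself set by 31 of these members, whose median difference on it was 0.007, whereas over all tested genes it was 0.26. Shares of members on this scale are therefore partly fixed by the scaling. The shares of all genes given beside them cannot serve as their background. Relative levels were above PBS in every pIpC library in 10 members, against 32.3% of all genes: Psmb9, Psme4, Psme2b, Psma1, Psmc1, Psmc3, Psmc4, Psmc6, Psmd8 and Psmd10. They were below in 8, against 16.4%: Psma4, Psma7, Psma8, Psmb1, Psmc2, Psmd5, Psmd9 and Psmc3ip. Psmb9 was at -0.96, -0.88 and -0.98 across PBS replicates 1 to 3 and at -0.33, -0.40 and -0.48 across pIpC replicates 1 to 3. This was the one member called on that scale (difference 0.54, adjusted p = 0.0525), where 31.6% of all genes were called. PBS replicate 3 did not stand apart from the other PBS libraries in Psmb9 relative to the constitutive subunits. Psmb8, at 0.15, 0.12 and 0.58 in PBS and 0.15, -0.15 and -0.11 in pIpC, overlapped. With each library's length trend removed instead, 6 members were called, against 53.5% of all genes: Psmb6 and Psme2 higher, and Psma8, Psmb1, Psmc3ip and Psmd5 lower.

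Proteasome genes outside the naming rule were taken from a list of 16, all tested, of which 2 were higher and 4 lower, with a median log2 fold change of -0.21 (5 higher and 4 lower without PBS replicate 3). The 37.5% called lies near the 45.3% of all genes. Without any 1 of the pIpC replicates, 1 was higher and 1 lower. Ecpas, whose product ECM29 binds the regulatory particle to the core and inspects assembled proteasomes, was the lowest, with 18505, 17039 and 13282 across PBS replicates 1 to 3 and 3398, 3482 and 3322 across pIpC replicates 1 to 3. Every library labelled pIpC was below every PBS library, with a log2 fold change of -2.24 (adjusted p = 9.25e-05), or -2.38 (adjusted p = 2.10e-08) without PBS replicate 3. The core assembly chaperones Psmg1, Psmg2 and Psmg4 were lower as well, at -0.63, -1.03 and -1.07 (adjusted p = 0.0759, 0.0533 and 0.0504), or -0.38 (adjusted p = 0.0148), -0.62 (adjusted p = 0.000879) and -0.69 (adjusted p = 0.0092) without PBS replicate 3. These 3 were chosen for mention after their values were seen, since they complete the count with Ecpas. Psmg3, also a core assembly chaperone of the list, was not called, at -0.31 (adjusted p = 0.626). Without PBS replicate 3 it was at 0.25 (adjusted p = 0.209), with every pIpC library above PBS replicates 1 and 2. Pomp, the maturation factor of the core, was not called, with 1864, 2004 and 4301 (PBS) and 2212, 1679.7 and 1756 (pIpC) and a log2 fold change of -0.43 (adjusted p = 0.337), or -0.05 (adjusted p = 0.739) without PBS replicate 3.

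Among regulators of proteasome transcription, Nfe2l2, which encodes NRF2, had 921, 868 and 1081 across PBS replicates 1 to 3 and 3144, 3151 and 3075 across pIpC replicates 1 to 3. It was higher by 1.71 (adjusted p = 0.000112), or 1.80 (adjusted p = 8.88e-08) without PBS replicate 3, with no overlap between groups. Nfe2l1, encoding NRF1, had 1737, 1647 and 1086 across PBS replicates 1 to 3 and 2054, 1974 and 1868 across pIpC replicates 1 to 3 and was not called, at 0.43 (adjusted p = 0.134). It was higher without PBS replicate 3, at 0.22 (adjusted p = 0.0271). Ddi2, the protease that releases NRF1, was the other called gene, at 0.72 (adjusted p = 0.0575), or 0.46 (adjusted p = 0.00456) without PBS replicate 3, and is named after its value was seen. Of 14 genes for ubiquitin supply and delivery, 1 was higher, Uba6, with 594, 610.4 and 366 (PBS) and 803, 759 and 733 (pIpC) (0.58, adjusted p = 0.0786; 0.34 without PBS replicate 3, adjusted p = 0.00654), and 1 lower, Ubqln2 (-0.47, adjusted p = 0.0323), with a median of -0.08. The 14.3% called lies under the 45.3% of all genes. Without pIpC replicate 1 the counts of higher and lower genes in the list were 0 and 1, and without pIpC replicate 2 or 3 they were 0 and 0. Over all 15020 tested genes, the fits without pIpC replicates 1, 2 and 3 called 2964, 2790 and 2842 higher and 2096, 1860 and 1908 lower. Rps27a, which encodes ubiquitin fused to a ribosomal protein, had the lowest value, -0.97 (adjusted p = 0.126), with 19820.3, 19665 and 59763 (PBS) and 15999, 13338 and 14481 (pIpC). Without PBS replicate 3 it was lower, at -0.44 (adjusted p = 0.00202), and it was also called lower by DESeq2 (adjusted p = 0.0247) and with the length trend removed (adjusted p = 0.0511).

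Of 14 genes of the interferon-gamma axis and of class I peptide loading, 9 were higher and 2 lower, with a median of 0.69 (10 and 2 without PBS replicate 3). That is 78.6% called, against 45.3% of all tested genes, and 85.7% against 65.1% without PBS replicate 3. Without pIpC replicate 1, 2 or 3 the list had 7 higher each time and 2, 1 and 2 lower, in fits that also called fewer of all genes. With edgeR 7 were higher and 2 lower. Nlrc5, the transactivator of MHC class I and of Psmb9, had 212, 212 and 105 across PBS replicates 1 to 3 and 1053, 843 and 677 across pIpC replicates 1 to 3 and was the highest at 2.32 (adjusted p = 0.00159), or 1.99 (adjusted p = 1.31e-05) without PBS replicate 3. Irf1, a transcription factor that binds the immunosubunit promoters, had 620.4, 690.3 and 835 (PBS) and 1381, 1217 and 1130.4 (pIpC) and was higher by 0.80 (adjusted p = 0.00765), or 0.92 (adjusted p = 7.08e-05) without PBS replicate 3. Tap2, which lies 2072 bases from Psmb8, was lower, with 2489, 2349 and 3062 (PBS) and 1873, 1713 and 1877 (pIpC), at -0.52 (adjusted p = 0.0256), or -0.41 (adjusted p = 0.0011) without PBS replicate 3. Ifngr1 had the lowest value, with 8566, 8629 and 8421 (PBS) and 5490.3, 5003 and 5543 (pIpC), at -0.68 (adjusted p = 0.00396). In a list of 19 genes known as interferon-stimulated, 7 were higher and 1 lower, with a median of 1.10 (10 and 1 without PBS replicate 3). The 42.1% called lies near the 45.3% of all genes. Replicate 1 of pIpC stood apart in this list: its summed count was 9632, against 4835 and 4263 in pIpC replicates 2 and 3 and 3261, 3418 and 5570.1 across PBS replicates 1 to 3, and without it the median was 0.47, with 7 higher and 1 lower. Ifi44 was the highest, with 0, 0 and 4.53 (PBS) and 64.9, 25.5 and 8.70 (pIpC), at 3.86 (adjusted p = 0.0191), and Oas1a the lowest, with 1069, 1064 and 2361 (PBS) and 962, 540.5 and 317 (pIpC), at -1.34 (adjusted p = 0.0665).

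Markers of other cell types moved with the groups, and the 10 most abundant genes held 5.55 to 5.85% of reads in PBS libraries and 11.64 to 11.97% in the libraries labelled pIpC. All 10 neutrophil markers were higher, and their summed normalised count was 16305 to 36512 in PBS and 1906400 to 1975570 in the libraries labelled pIpC. Of 7 leukemic progenitor markers, 5 were lower, Hoxa9 and Meis1 among them (-4.32 and -4.01), and 1 was higher, Flt3, which the dendritic list also holds (summed 38280 to 45489 against 16105 to 16467). All 8 erythroid markers were higher (20.8 to 37.3 against 3654 to 5555), with Slc4a1 at 0 in every PBS library, as were all 10 B cell markers (144 to 307 against 1434 to 2552), with Ms4a1 at 0 in every PBS library. The same held for the 6 tested of 10 T and NK cell markers (188 to 320 against 3939 to 4567), with Cd8b1 at 0 in every PBS library and at 0 to 1.02 in the others, and for the 9 tested of 10 dendritic markers. Of 10 macrophage markers, 7 were higher and 2 lower, Adgre1 among the latter (-3.80), and their summed count was lower (11827 to 16116 against 7889 to 9384). The pan-leukocyte gene Ptprc was higher (4490 to 7558 against 11839 to 13597). Their part in the differences between groups in Psme4, Psma8, Psmd5, Psmc3ip, Ecpas and the ratios of immunosubunits was not tested.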

How the data were processed

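The authors deposited one table of normalised gene counts, used here as a signal: per the labels, poly(A) RNA was sequenced from unstranded libraries. From the values, each column is a read count multiplied by 1 factor per library. The study's methods name nf-core/rnaseq with STAR and RSEM on mm10, stranded libraries and DESeq2, whereas the submitters' processing notes name GRCm38, HISAT2 2.2.1, SAMtools, featureCounts (Subread) and edgeR. Which of these made the table is not given in the sources used here. Divided by the step that 1 read makes in its library, all values above 0 came out whole (100%, tolerance 0.05), so reads were recovered.

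Genes with a mean normalised count of at least 10 (15020) were fitted with limma 3.58.1 in R 4.3.3 on log2(normalised count + 1), the prior variance following mean expression. No replicate block was used, and p-values were adjusted by Benjamini-Hochberg over all tested genes, with a threshold of 0.1. Ratios and shares used exact permutation tests (scipy 1.17.1). The fitting step was tested on simulated data. These held far fewer changed genes than were called here and no shift shared across genes like that of PBS replicate 3. The test therefore does not cover such a shift. Gene models came from GENCODE M21, and 55227 of 55487 identifiers matched. Promoters came from RefSeq (GRCm38.p6).

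The members and lists were chosen with earlier results of these data known, so no list count is independent evidence. By rule, full values are given for the replaceable catalytic subunits, Psme1 to Psme4, the highest and lowest member of each structural group and of each list, and Pomp, Nfe2l1, Irf1, Nlrc5, Tap1, Tap2 and Brd9. The alternatives were pseudocounts of 0.1 and 10, no filter, a mean of at least 50, quantile normalization, edgeR 4.0.16, DESeq2 1.42.0, a replicate block, each library left out and a threshold of 0.05. Removal of the length trend (running median over 1001 genes) and scaling to the constitutive subunits were added after the data were seen. Alleles and exons of Brd9 were not analysed here, and 2 genes of the lists are not reported here.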

Additional observations from a re-analysis of the deposited data

How the results depend on the processing

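The count of called members was 4 and lay between 3 and 6 under both pseudocounts, both filters, quantile normalization, edgeR, DESeq2 and removal of the length trend. It was 1 with scaling to the constitutive subunits, 1 at an adjusted p under 0.05, and 1 to 16 when each library was left out in turn, the 16 being without PBS replicate 3 and the 1, Psme4, without pIpC replicate 2. The split of calls over all genes, 3750 higher and 3058 lower, became 3244 and 4078 with quantile normalization, under which the median over all genes was -0.12, and 3088 and 1654 with scaling to the constitutive subunits, under which it was 0.26. Called members split 1 higher and 3 lower, 1 and 5 with quantile normalization, and 1 and 0 with that scaling. Group medians over the libraries left out ranged from -0.51 to 0.082 in the alpha ring, from -0.42 to 0.19 in the constitutive catalytic subunits and from -0.59 to 0.22 in the immunosubunits, each positive only without PBS replicate 3. The catalytic median was 0.17 with the length trend removed.

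Replicate numbers did not pair the libraries: the correlation of deviations from group means was -0.12, 0.14 and 0.04 for numbers 1, 2 and 3, and not every library correlated best with its own number. With the number as a replicate block, 2 members were called, Psma8 and Psme4 (Psmd5 and Psmc3ip had adjusted p = 0.114 and 0.110), and 6095 of all genes, and exact paired tests gave p = 0.25, 0.25 and 1 for the ratios and 0.5 for the share.

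Changes of sign among values not called in the limma fit of all 6 libraries follow. Some values of changed sign were themselves called higher: Psmb6 with the length trend removed (adjusted p = 0.0722), and Psmb3, Psmb6 and Psmd10 without PBS replicate 3. The upper ends of the ranges of Psme1, Psme2 and Psmc1, also without PBS replicate 3, were called higher too. With the length trend removed, Brd9 was at -0.041, Psmb5 at 0.17, Psmb6 at 0.30, Psma1 at 0.14, Psmd10 at 0.17 and Psmb3 at 0.027. With scaling to the constitutive subunits, Psmb5 was at 0.039, Psmb6 at 0.17, Psma1 at 0.084, Psmd10 at 0.20 and Psmb3 at 0.040. With quantile normalization, Psme1 was at -0.066, Psme2 at -0.061, Psmc1 at -0.064 and Psmd1 at -0.065. With edgeR, Psme1 was at -0.13, Psme2 at -0.12 and Psmc1 at -0.017, and with DESeq2 at -0.11, -0.11 and -0.0035. With libraries left out, the ranges that crossed 0 were Psmb10 (-0.59 to 0.22), Psmb5 (-0.43 to 0.19), Psmb6 (-0.31 to 0.32), Psme1 (-0.20 to 0.47), Psme2 (-0.19 to 0.53), Psma1 (-0.31 to 0.11), Psmd10 (-0.22 to 0.26), Psmb3 (-0.42 to 0.21), Psmc1 (-0.13 to 0.33) and Psmd1 (-0.036 to 0.18). The Psmb10 to Psmb7 ratio ranged from -0.19 to 0.23, positive only without PBS replicate 3, and was 0.16 with the length trend removed. Over the 36 named genes and 611 comparisons with an alternative, 520 kept direction and side of the threshold, 34 lost their call, 20 gained one and 37 changed sign. The cause was not tested in any of these. Low counts make the fold changes of Psme2b, Psma8 and Ifi44 uncertain. Psme2b held 3 reads in PBS replicate 3, a library of 21230930 reads on genes. Psma8 held 4 reads in pIpC replicate 3, a library of 23586722, where the libraries ranged from 19277439 to 23586722. Ifi44 held 0, 0 and 4 reads across the PBS libraries.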
